A study of Mus musculus with 39 samples.

Results

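Microglia that had shared a culture for 60 or 150 min with microglia loaded with alpha-synuclein were compared with a control at 0 min, a baseline separate from the same population at 0 min. The groups were taken by their labels: 3 acceptor libraries at 60 min, 3 at 150 min and 3 of the control, 9 of the 39 libraries of the series. All were RNA of primary microglia from newborn C57BL/6 mice. The cells of 2 brains were pooled per flask, grown in medium that contained supernatant of L929 cells, and shaken off a layer of astrocytes. Donors received 1 µM of dye-labelled alpha-synuclein for 14 h, a neuronal protein found clumped in Parkinson's disease. Acceptors, grown in T25 flasks, were stained with a violet cell dye for 15 min and then kept with the donors without direct contact. The letters TW in the names of the co-culture groups are not explained in the labels. The sources used here do not give the vessel, density or handling of the control, and no acceptors were kept alone for 60 or 150 min. Co-culture, staining, time after handling and any difference in plating therefore cannot be told apart in this comparison. Whether the 3 libraries of a group are separate cultures or mice is not given either, so p-values measure the spread between libraries.

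Microglia are the resident macrophages of the brain. They respond to secreted signals and to changes in their surroundings through immediate early transcription factors such as Fos and Egr1, whose genes need no new protein to be switched on. Other programmes act as well: NF-kB drives cytokines and chemokines, interferon signalling drives antiviral genes, and low oxygen or a change of metabolism induces the growth factor gene Vegfa.

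The 9 libraries held 10249066 to 14743934 reads and 12649 to 13611 genes with reads. The unit of level is CPM, a library-scaled read count that uses TMM factors, and 3 reads correspond to 0.184 to 0.270 CPM. Floors of this kind cover counting error only. QuantSeq counts tags from the 3′ ends of polyadenylated RNA, so CPM does not grow with transcript length. The 14 microglia and macrophage markers summed to 11540 to 12003 CPM in control, 11091 to 13530 CPM at 60 min and 12145 to 16298 CPM at 150 min. Csf1r, the receptor for the survival factor CSF1, stood at 2779.7 ± 510 CPM in control (SD, n = 3). P2ry12 and Tmem119, which mark microglia in the undisturbed brain, stood between 1.87 and 8.82 CPM in the 9 libraries. The 12 astrocyte markers summed to 17.2 to 41.8 CPM in control, 17.1 to 47.9 at 60 min and 16.7 to 48.6 at 150 min, and Gjb6 was at 0 in all 9. The 12 markers of the oligodendrocyte lineage summed to 229 to 240 CPM in control, 182 to 233 at 60 min and 210 to 257 at 150 min. The 8 markers of border macrophages in the table summed to 588 to 659 CPM in control, 661 to 774 at 60 min and 699.8 to 741 at 150 min, without overlap with control. Most of that sum was Ms4a7, at 408 to 453 CPM in control and 484 to 563 CPM in the acceptors. It was the 1 gene of the 6 tested whose acceptor libraries all lay above control, as 1.28% of all genes tested did. Siglec1 ranged lower, at 62.9 to 84.5 against 46.0 to 70.7 CPM. Mrc1 stood at 25.8 to 51.7 against 25.2 to 52.6 CPM, and Pf4 at 58.8 to 83.3 against 51.9 to 116 CPM. Lyve1 and Cd163 were at 0 in control and at most 0.307 CPM in the acceptors. The part of these cells in the results was not tested. The library numbers in the labels fall into 3 runs of 13 consecutive numbers, each with 1 library of every group. Libraries of the same run deviated together from their group means, so each comparison is also given with the run as a block.

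Against control, 2 genes rose in the acceptors and none fell, by edgeR's quasi-likelihood test at an adjusted p of 0.05: Cytip and Vegfa. They are 0.0153% of 13034 genes tested, and 464 genes had an unadjusted p below 0.05. With the run as a block 17 genes were called, 12 higher and 5 lower, which are 0.130%, 0.0921% and 0.0384% of the genes tested. DESeq2 called 10 higher and 2 lower, 0.0921% of genes tested, and limma-voom 4 higher and 1 lower, 0.0384%. The lower call of limma-voom was 4921524J17Rik, also called lower by DESeq2, which held 14.5, 8.93 and 10.2 CPM in control and 2.48 to 9.70 CPM in the acceptors, median 3.72. Its groups overlapped, and its adjusted p by edgeR was 0.223, and 0.0692 with the block. Without control replicate 3 no gene was called, and without control replicate 2 the count was 15, with 5 higher and 10 lower. In a fit to the 9 libraries alone 1 gene was called. The block in that smaller fit, chosen after seeing the data, called 53 of 11737 genes, 0.452%, with 27 higher and 26 lower. Elsewhere the word called refers to the fits to all 39 libraries unless the smaller fit is named. In bulk RNA, fewer cells that express a gene and less of its RNA per cell cannot be told apart.

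Cytip encodes a scaffold protein of blood cells that binds cytohesin-1 and is known for loosening integrin-mediated adhesion in dendritic cells and lymphocytes. The gene lies on chromosome 2, from 58129137 to 58195532 on the minus strand of GRCm38. Control held 0.361, 12.2 and 2.83 CPM in replicates 1 to 3. At 60 min the libraries held 38.4, 55.8 and 51.8 CPM, and at 150 min 58.5, 98.7 and 97.8 CPM. Every acceptor library was above every control library, and the controls differed widely among themselves at these low counts of 4, 157 and 37 reads. The fitted log2 fold change was 3.63 ± 0.54 (SE) with an adjusted p of 0.0013 by edgeR. It was 3.23 at 60 min, adjusted p = 0.011, and 4.04 at 150 min, adjusted p = 0.000603. Within the runs, the log2 difference at 60 min was 4.11, 6.20 and 2.18, and at 150 min 4.29, 7.56 and 2.99. All point upward, and the widest belongs to the run of the control with 4 reads. The adjusted p was 0.0861 without control replicate 3, and 0.246 in a fit to the 9 libraries alone, with log2 fold changes of 3.34 and 3.62.

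Vegfa encodes vascular endothelial growth factor A, a secreted factor that makes vessels grow and leak and is a textbook target of the hypoxia factor HIF-1. It lies on chromosome 17, from 46016993 to 46032369 on the minus strand of GRCm38. Control held 5.77, 4.66 and 4.75 CPM, against 22.6, 33.8 and 18.4 CPM at 60 min and 19.5, 23.8 and 22.0 CPM at 150 min. The 3 controls lay close together and every acceptor library was well above them. The fitted log2 fold change was 2.20 ± 0.35, or 4.60-fold, with an adjusted p of 0.00287 by edgeR. It was 2.30 at 60 min, adjusted p = 0.0108, and 2.10 at 150 min, adjusted p = 0.0233. Within the runs the log2 difference was 1.91, 1.94 and 2.82 at 60 min and 2.0, 2.01 and 2.20 at 150 min. The runs thus gave nearly the same difference at 150 min. Without control replicate 3 the adjusted p was 0.0931, with a log2 fold change of 2.16.

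The promoter windows of these called genes are shown because both genes rose and both windows hold letters of the interferon-stimulated response element. They are the 300 bases around a RefSeq start site of GRCm38.p6, 250 before it and 50 from it on, read 5′ to 3′ on the gene's own strand. Capitals mark the match to that motif, searched as GAAA, any 2 bases and GAAA on both strands, which lies on the opposite strand in each window. The Cytip window is chr2:58160073-58160372, minus strand, and starts transcription 35410 bases inside the GENCODE gene. The Vegfa window is chr17:46032328-46032627, minus strand, and its start site is 8 bases from the start of the GENCODE gene.
Cytip promoter: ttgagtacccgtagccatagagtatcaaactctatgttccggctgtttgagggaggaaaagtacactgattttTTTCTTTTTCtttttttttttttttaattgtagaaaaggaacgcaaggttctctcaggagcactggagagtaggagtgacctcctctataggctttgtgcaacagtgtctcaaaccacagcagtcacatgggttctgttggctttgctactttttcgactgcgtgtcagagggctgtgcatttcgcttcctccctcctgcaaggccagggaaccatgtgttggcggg
Vegfa promoter: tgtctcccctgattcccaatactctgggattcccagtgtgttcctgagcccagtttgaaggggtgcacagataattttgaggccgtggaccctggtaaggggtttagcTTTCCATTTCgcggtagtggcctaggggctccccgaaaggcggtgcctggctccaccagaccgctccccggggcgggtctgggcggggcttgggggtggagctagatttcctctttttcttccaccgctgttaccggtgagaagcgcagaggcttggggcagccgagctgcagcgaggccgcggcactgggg
The matches begin 177 bases upstream of the start site in Cytip, within a run of thymines, and 142 bases upstream in Vegfa. These letters occur in 3.44% of the 32851 promoters of the table, counting both strands, and in 3.22% of those of genes tested. RefSeq gives Vegfa a second start site, 7206 bases inside the GENCODE gene, and its window, chr17:46025114-46025413, held no match to any of the motifs searched and is not shown. Neither window shown held the letters searched for NF-kB (GGG, any 3 bases, TTCC), AP-1 (TGANTCA) or CRE (TGACGTCA) on either strand. Those occur in 5.56%, 7.81% and 1.79% of all promoters. A match is a description of the letters and not a binding site.

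**Figure D1:**
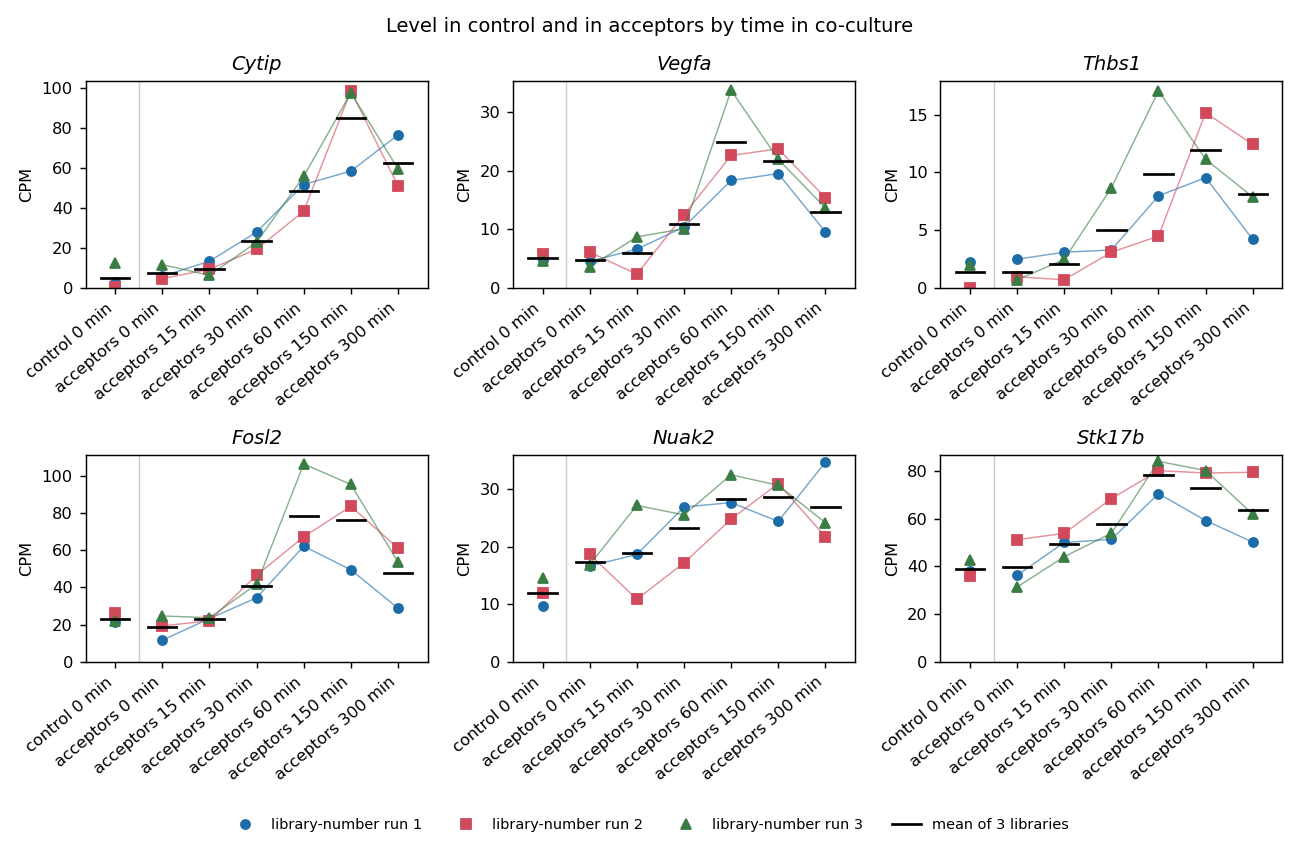
CPM of Cytip, Vegfa, Thbs1, Fosl2, Nuak2 and Stk17b in control and in acceptors at 0, 15, 30, 60, 150 and 300 min, 1 point per library, coloured by run of library numbers, with a bar at the mean of 3 libraries; thin lines join acceptor libraries of a run, which are not the same cells. At 60 and 150 min all 6 points of each of these genes lie above the 3 control points.

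Over the acceptor times as a whole, Cytip averaged 7.32 ± 3.74 CPM at 0 min, 9.61 ± 3.54 at 15 min, 23.4 ± 4.33 at 30 min, 48.7 ± 9.12 at 60 min, 85.0 ± 23.0 at 150 min and 62.5 ± 13 at 300 min (SD, n = 3 each). Vegfa averaged 4.73 ± 1.28, 5.87 ± 3.26, 11.0 ± 1.30, 24.9 ± 7.97, 21.8 ± 2.13 and 12.9 ± 3.0 CPM at the same times. The acceptors at 0 and 15 min stood near the control mean of 5.13 ± 6.24 CPM for Cytip and 5.06 ± 0.618 CPM for Vegfa, and the highest means of Vegfa came at 60 and 150 min. In donors, Cytip averaged 22.5 ± 0.584 CPM at 0 min and 9.10 ± 2.04 CPM at 300 min.

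With the run as a block, 10 further genes were called higher. They are named because that test called them, after their values had been seen. Without the block, DESeq2 also called Thbs1, Adora2b, Nuak2, Stk17b, Fosl2, Bcl3 and Got1 higher, and limma-voom called Nuak2 and Stk17b higher. Neither called Lpar6, Id3 or Hilpda. Thbs1 encodes thrombospondin-1, a secreted matrix protein that activates TGF-beta and inhibits vessel growth. Control held 0, 1.94 and 2.22 CPM, against 4.48, 17.1 and 7.97 CPM at 60 min and 9.54, 15.2 and 11.1 CPM at 150 min. No acceptor library overlapped a control library. The log2 fold change was 2.92 ± 0.61, with an adjusted p of 0.0845 by edgeR and 0.0083 with the block. Donors held far more, 76.3 ± 11.0 CPM at 0 min.

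Of the receptors, Adora2b, the low-affinity receptor for adenosine, held 3.61, 1.16 and 1.61 CPM in control. It held 5.21, 6.40 and 6.49 CPM at 60 min and 8.88, 11.2 and 11.1 CPM at 150 min. The groups did not overlap, and the log2 fold change was 1.90 ± 0.48, adjusted p = 0.294 by edgeR and 0.0371 with the block. Lpar6, a receptor for lysophosphatidic acid, held 21.2, 64.5 and 21.9 CPM in control and 59.0 to 103 CPM in the 6 acceptor libraries, median 64.3. The control of the third run overlapped the acceptors, while within its own run both acceptor libraries were above it, at 103 and 77.5 CPM. Its log2 fold change was 0.99 ± 0.47, with an adjusted p of 0.0419 with the block. Of 25 chemokine and purine receptor genes tested, 3 or 12% were above control in every run and 5 or 20% below. Of all genes tested, 5.02% were above and 5.0% below. The median log2 fold change of the 25 was 0.05.

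Of the kinases, Nuak2, an AMPK-related kinase linked to the contraction of actin fibres, held 11.9, 14.6 and 9.65 CPM in control. It held 24.8, 32.5 and 27.7 CPM at 60 min and 24.4, 31.0 and 30.7 CPM at 150 min. No library overlapped, and the log2 fold change of 1.24 ± 0.24 had an adjusted p of 0.0551 by edgeR and 0.0169 with the block. Without the block it passed the threshold under scaling by total counts, at 0.0373 by edgeR, and also by DESeq2 and limma-voom. It was called in 8 of 17 alternative settings. Stk17b, a kinase of the death-associated family, held 35.9, 42.8 and 38.0 CPM in control, then 80.1, 84.0 and 70.5 CPM at 60 min and 59.2, 79.2 and 80.2 CPM at 150 min. Here too the groups stood apart, with a log2 fold change of 0.96 ± 0.19 and an adjusted p of 0.058 by edgeR and 0.0182 with the block.

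Of the regulators of transcription, Fosl2, a partner of Jun in the AP-1 factor, held 26.2, 21.8 and 21.4 CPM in control. It held 67.1, 106 and 62.1 CPM at 60 min and 49.4, 83.5 and 95.2 CPM at 150 min. All 6 were above control, with a log2 fold change of 1.74 ± 0.46, adjusted p = 0.455 by edgeR and 0.0182 with the block. Bcl3, an IkB-family protein that acts with NF-kB p50 and p52 in the nucleus, held 19.1, 20.3 and 20.1 CPM in control and 23.6 to 64.8 CPM in the acceptors, median 41.9, adjusted p = 0.0371 with the block. Id3, which blocks basic helix-loop-helix factors, held 3.25, 21.9 and 2.76 CPM in control and 21.0 to 41.6 CPM in the acceptors, median 23.8, adjusted p = 0.0371 with the block. For Id3 the control of the third run lay inside the range of the acceptors.

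Of the metabolic genes, Hilpda, a hypoxia-induced protein that inhibits fat breakdown at lipid droplets, held 42.2, 39.7 and 43.1 CPM in control and 66.4 to 104 CPM in the acceptors, median 86.2. Got1, the cytosolic aspartate aminotransferase, held 44.5, 43.9 and 71.0 CPM in control and 83.7 to 125 CPM in the acceptors, median 98.6. Neither gene's groups overlapped, and the adjusted p with the block was 0.0341 and 0.0419, at log2 fold changes of 1.05 ± 0.30 and 0.92 ± 0.23.

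The 5 genes called lower with the block all had the control library of the third run inside the range of the acceptors. Slco4a1, a membrane transporter of organic anions that include thyroid hormone, held 744, 241 and 631 CPM in control. It held 352, 163 and 211 CPM at 60 min and 178, 215 and 52.7 CPM at 150 min. Within each run both acceptor libraries were below their control, and the log2 fold change was -1.51 ± 0.37, adjusted p = 0.272 by edgeR and 0.0083 with the block. DESeq2 without the block also called Slco4a1 lower, and none of the others called lower with the block. Stk38l, a kinase of the NDR family, held 65.9, 16.2 and 64.3 CPM in control and 11.1 to 39 CPM in the acceptors, median 21.1, adjusted p = 0.0371 with the block. Cflar, which encodes the caspase-8 inhibitor c-FLIP, held 115, 42.0 and 92.9 CPM in control and 30.3 to 57.2 CPM in the acceptors, median 49.0, adjusted p = 0.0371 with the block. Its groups overlapped, and in the third run the library at 60 min held 42.3 CPM against 42.0 CPM in control. Without control replicate 2 and without the block, Slco4a1, Stk38l and Cflar were called lower, with log2 fold changes of -1.86, -1.60 and -1.16. That fit left out the control of the third run but kept its acceptor libraries. These were the lowest of their groups at 60 and at 150 min for all 3 genes, so the runs were not balanced.

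**Figure D2:**
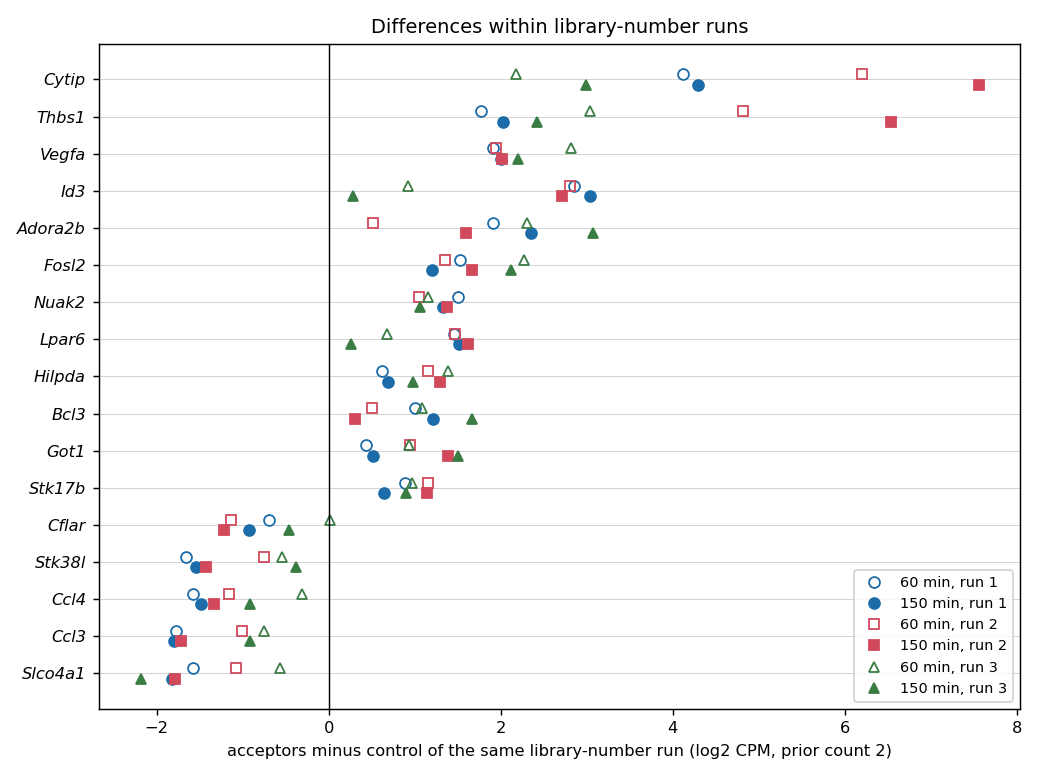
Log2 difference between an acceptor library and the control library of the same run, in log2 CPM with a prior count of 2, for the 17 genes called with the run as a block; open symbols stand for 60 min, filled ones for 150 min, and colour and shape for the run. The 12 genes called higher lie to the right of 0 in all 6 differences, and of the 5 called lower all but Cflar lie to the left in all 6.

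The other 2 genes called lower with the block encode chemokines that draw in monocytes and lymphocytes. Ccl3 held 1510, 313 and 1858 CPM in control, 752, 185 and 544 CPM at 60 min, and 535, 458 and 166 CPM at 150 min. Ccl4 held 700, 188 and 831 CPM in control, 313, 152 and 278 CPM at 60 min, and 297, 277 and 99.7 CPM at 150 min. The control of the third run, replicate 2, was lowest of the controls for both and lay inside the range of the acceptors. The acceptor libraries of that run were also the lowest of their groups. The log2 fold change was -1.49 ± 0.55 for Ccl3 and -1.28 ± 0.41 for Ccl4, uncalled without the block and at adjusted p = 0.0169 and 0.0083 with it. Within the runs the Ccl3 difference at 150 min was -1.80, -1.72 and -0.92. The acceptors at 0 min already stood below control in the first and second runs, at -1.09 and -0.92, and at -0.02 in the third.

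The inflammatory genes Tnf, Cxcl10, Ccl2 and Ch25h showed the same split of the controls and were not called with or without the block in the fit to all 39 libraries. Tnf, the cytokine that signals through TNF receptors to NF-kB, held 252, 58.1 and 226 CPM in control and 30.3 to 98.0 CPM in the acceptors, median 73.1. Its log2 fold change was -1.40 ± 0.45, with an adjusted p of 0.145 with the block. Cxcl10, an interferon-induced chemokine, held 545, 84.1 and 763 CPM in control and 67.4 to 286 CPM in the acceptors, and Ccl2, a chemokine for monocytes, 93.0, 12.3 and 248 CPM and 5.98 to 76.3 CPM. Ch25h, the enzyme that makes 25-hydroxycholesterol, held 27.8, 2.72 and 105 CPM in control and 0.224 to 11.7 CPM in the acceptors. The lowest of these acceptor libraries stood at the level of 3 reads. In each of these genes control replicate 2, of the third run, lay inside the range of the acceptors. In Tnf, Cxcl10 and Ccl2 the acceptor libraries of the third run were likewise the lowest of their groups at 60 and at 150 min. Cxcl10 held 6.39 and 6.08 log2 CPM there, against 7.76 to 8.16 in the other runs. A fit without control replicate 2 and without the block kept these acceptor libraries. In it Ch25h was called by edgeR, at a log2 fold change of -3.57 and an adjusted p of 0.0216, and Tnf was not, at 0.150. The block in the smaller fit called Tnf lower, at a log2 fold change of -1.29 and an adjusted p of 0.00446, and Cxcl10 lower, at -1.07 and 0.0388.

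Il1b, the inflammasome-processed cytokine, did not follow them. Control held 401, 39.3 and 289 CPM, acceptors 289, 248 and 260 CPM at 60 min and 360, 478 and 319 CPM at 150 min. The acceptors lay among the 2 high controls, far above the third one, so the log2 fold change of 0.40 ± 0.59 against control was not called and turned to -0.11 without control replicate 2. Against the acceptors at 0 min, which held 119, 50.9 and 105 CPM, the same 6 libraries gave a log2 fold change of 1.80, called higher with the block at an adjusted p of 0.0323. Between the baselines themselves the difference was -1.41 and was not called.

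**Figure D3:**
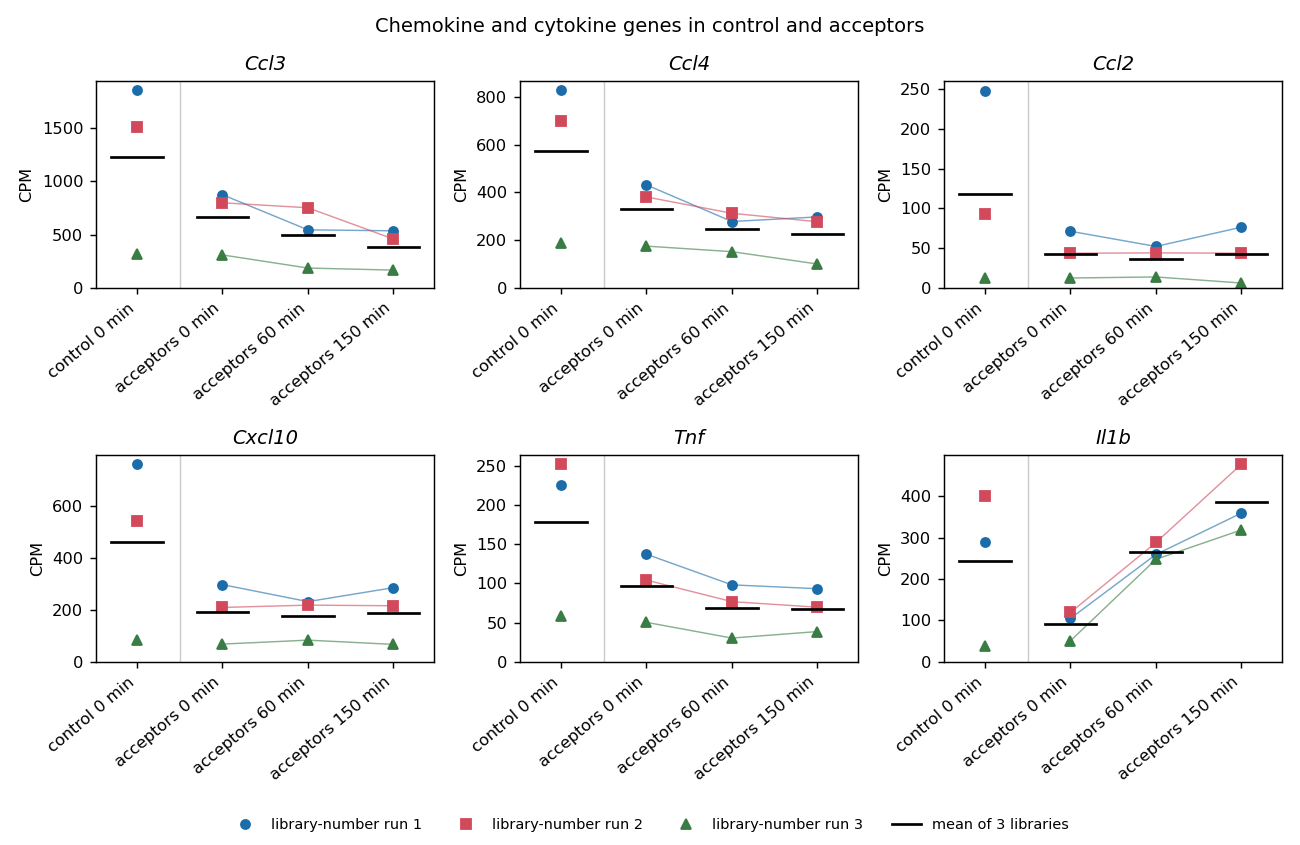
CPM of 4 chemokine genes, Tnf and Il1b in control and in acceptors at 0, 60 and 150 min, 1 point per library, coloured by run of library numbers, with a bar at the mean of 3 libraries. In all 6 genes the library of run 3 is the lowest of its group, in control and in acceptors at each time shown. Il1b is the only one of the 6 whose 3 libraries at 60 and at 150 min all lie above the 3 at 0 min.

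The immediate early list, 37 genes of fast transcription factors, had no call without the block and 2 with it, Fosl2 and Id3. In 6 of the 37 both acceptor libraries were above their control in every run, where 5.02% of all genes tested were, and in 2 both were below, where 5.0% of all genes were. Fos held 63.2, 90.8 and 92.3 CPM in control, 191, 236 and 163 CPM at 60 min and 129, 182 and 164 CPM at 150 min. The groups did not overlap, yet the log2 fold change of 1.10 ± 0.37 was not called, adjusted p = 0.878 by edgeR and 0.423 with the block. The block in the smaller fit called it, at 0.00912. Nr4a2, a nuclear receptor without a known hormone, held 3.25, 1.40 and 2.22 CPM in control, 27.0, 14.2 and 18.2 CPM at 60 min and 10.3, 14.1 and 6.58 CPM at 150 min. It too did not overlap, with a log2 fold change of 2.65 ± 1.08 and an adjusted p of 0.207 with the block, and was called by the block in the smaller fit, at 0.000643. Over all genes, the 6 acceptor libraries lay above the 3 controls in 167 genes, 1.28% of those tested, and below in 111, 0.852%. Fosb held 1.53 ± 1.07 CPM in control, 9.93 ± 4.40 at 60 min and 3.57 ± 1.17 at 150 min. Egr1, another early gene, held 11.0 ± 0.776, 12.6 ± 3.32 and 9.04 ± 1.91 CPM, with a log2 fold change of -0.04. Jun, the main partner of Fos, held 65.9 to 76.6 CPM in control and 46.2 to 64.8 CPM in the acceptors, so that all 6 lay below, and was not called.

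The interferon response list had no call among its 40 genes tested with or without the block. Its median log2 fold change was -0.33, where the median of all genes tested was -0.0027, and 10 of the 40 were below control in every run, 25% where 5.0% of all genes were. These 10 are Ifi47, Gbp5, Ifit3b, Usp18, Ifit3, Ifih1, Rsad2, Igtp, Cmpk2 and Mx1. Ifi47, an interferon-induced GTPase, averaged 225 ± 131 CPM in control, 125 ± 66.2 at 60 min and 123 ± 51.8 at 150 min. The block in the smaller fit called Cmpk2, Usp18, Ifi47 and Ifit3b lower, with adjusted p from 0.0108 to 0.047. The acceptors at 0 min stood at a median of -0.24 against the same control, and the later acceptors at -0.05 against those at 0 min.

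The chemokine list had a median of -0.28 over 19 genes, with 5 below control in every run, 26.3% where 5.0% of all genes were: Ccl3, Ccl4, Cxcl10, Ccl12 and Ccl5. The block in the smaller fit also called Ccl12 lower, at an adjusted p of 0.019. At 0 min the acceptors stood at a median of -0.80 against control, and the later acceptors at 0.07 against those at 0 min. These comparisons share libraries, so their values are set side by side only. The inflammatory cytokine list had 1 call among 23 genes, Vegfa, and a median of -0.24. Csf1, the growth factor for macrophages, averaged 38.4 ± 38.6 CPM in control, 11.2 ± 1.07 at 60 min and 14.2 ± 8.57 at 150 min, and was not called.

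NF-kB feedback genes had a median of -0.03 over 18 genes, with quartiles of -0.27 and 0.08, and Bcl3 as the 1 call with the block. Bcl3, Nfkbie and Nfkb2, 3 of the 18 or 16.7%, were above control in every run, where 5.02% of all genes were, and Nfkb1 was below. Nfkbia, the inhibitor IkB-alpha, held 610 ± 251 CPM in control, 544 ± 138 at 60 min and 443 ± 64.5 at 150 min. Tnfaip3, the deubiquitinase A20, held 9.20 ± 7.41, 6.15 ± 0.149 and 5.87 ± 4.32 CPM. Among MAP kinase and cytokine feedback genes, with 0 of 21 called, Trib1, a pseudokinase that targets C/EBP factors for degradation, held 45.9 to 61.3 CPM in control and 70.6 to 99.9 CPM in the acceptors, and Spred1, an inhibitor of Ras signalling, 99.4 to 206 CPM and 75.1 to 137 CPM. The groups of Trib1 did not overlap and those of Spred1 did, and the block in the smaller fit called Spred1 lower, at an adjusted p of 0.047.

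In the adhesion and matrix list 1 of 27 genes was called, Cytip, and 2 with the block, with Thbs1. Its median of 0.18 was the highest of the pathway lists. In every run 5 of the 27, 18.5%, were above control and 3, 11.1%, below, where 5.02% and 5.0% of all genes were. Of the integrins, Itga6 averaged 50.6 CPM in control and 73.5 CPM in the acceptors and was above control in every run. Itga4 averaged 54.7 and 31.4 CPM and was below control in every run, and neither was called. Of receptors for cytokines, Il4ra, which binds interleukin-4, held 65.5 ± 9.79 CPM in control, 86.2 ± 12 at 60 min and 119 ± 14.6 at 150 min, with an adjusted p of 0.418 with the block and 0.0227 with the block in the smaller fit. Cd83, a surface protein of activated antigen-presenting cells, held 83.9 to 123 CPM in control and 133 to 172 CPM in the acceptors without overlap, and was not called with or without the block, while the block in the smaller fit gave an adjusted p of 0.047.

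The hypoxia and glycolysis list had Vegfa called and, with the block, Hilpda. Both are known hypoxia genes, and the list's median over 32 genes was -0.12. Vegfa and Hilpda were the 2 genes above control in every run, 6.25% where 5.02% of all genes were. There were 5 genes below control in every run, P4ha2, P4ha1, Pgam1, Ldha and Pfkp, 15.6% where 5.0% of all genes were. The part of low oxygen in these values was not tested. The lysosome list of 44 genes and the autophagy list of 42 had no call, with medians of 0.04 and 0.05. Nor was there a call among 35 genes of actin and membrane tubes, 29 of homeostatic microglia, 28 of disease-associated microglia or 30 of the NRF2 response, with medians between -0.01 and 0.04. Cx3cr1, the fractalkine receptor, held 109 to 527 CPM in control and 134 to 475 CPM in the acceptors. Trem2, a lipid receptor of microglia, held 215 to 448 and 237 to 442 CPM, and Apoe, a lipid carrier, averaged 16045 CPM in control against 15886 at 60 min and 16959 at 150 min. In these genes the groups overlapped.

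**Figure D4:**
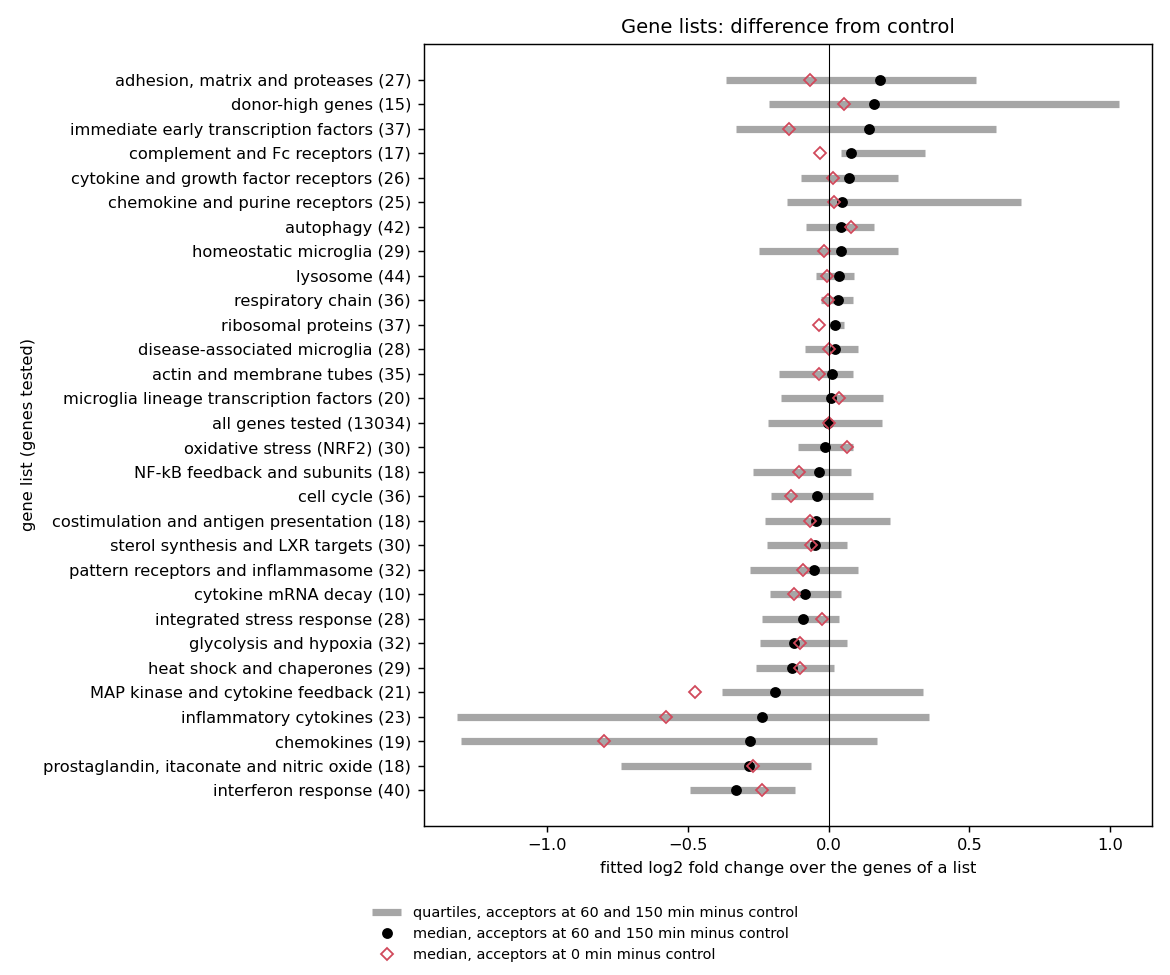
Median (points) and quartiles (bars) of the fitted log2 fold change of acceptors at 60 and 150 min against control over the genes of each pathway list, with the genes tested in parentheses, and the median of acceptors at 0 min against the same control (diamonds). Medians of the later acceptors run from -0.33 for the interferon response to 0.18 for adhesion and matrix, and the diamonds of chemokines and inflammatory cytokines lie further left, at -0.80 and -0.58.

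Genes of high level in the donors were read in the acceptors as well. The list of 15 was picked for its level in donors of these data, so its levels there are no finding. Lcn2, an iron-trapping protein, held 833 to 1306 CPM in the donors at 60 and 150 min and 0.123 to 3.66 CPM in the 6 acceptor libraries, against 0.271 to 0.919 CPM in control. The acceptor mean was 0.0998% of that of the donors. Il12b, a subunit of interleukin-12, reached at most 0.149 CPM in the acceptors, below the level of 3 reads, and was at 0 in the controls. Saa3, an acute-phase protein whose reads may be shared with close copies, held 1607 to 5125 CPM in control and 1106 to 3647 CPM in the acceptors. Among the 15, Hilpda was called higher with the block, and none was called without it; the block in the smaller fit also called Saa3 lower, at an adjusted p of 0.0227.

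Between the times, no gene was called at 150 against 60 min by edgeR, with 164 genes at an unadjusted p below 0.05, nor by DESeq2, limma-voom or the block, where 175, 183 and 207 genes had one. Cytip was 0.81 higher on the log2 scale at 150 min and Vegfa 0.20 lower, neither called. Dmxl1, 9930111J21Rik1, Lcn2 and Nmnat1 were among the 5 genes of smallest p. Dmxl1, which takes part in acidifying vesicles, averaged 20.7 ± 6.37 CPM at 60 min and 7.51 ± 2.10 CPM at 150 min, with control at 17.4 ± 5.12. At each time alone, Cytip and Vegfa were the genes called against control, 2 of 13034 or 0.0153%. With the block 12 genes, 0.0921%, were called at 150 min, 8 higher (0.0614%) and 4 lower (0.0307%), and 2 at 60 min. The 12 include Smim3, a small membrane protein, at 26.5 ± 2.53 CPM in control and 58.4 ± 4.39 CPM at 150 min, and Bmt2, also known as a sensor of S-adenosylmethionine, at 273 ± 91.8 and 99.8 ± 30.7 CPM.

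Against the other baseline, the acceptors at 0 min, the same 6 libraries gave the same 2 calls, 0.0153% of genes tested. Cytip held 4.61, 11.6 and 5.77 CPM at 0 min and was 3.13 higher on the log2 scale, adjusted p = 0.00534. Vegfa held 6.10, 3.55 and 4.54 CPM and was 2.29 higher, adjusted p = 0.00284. With the block 9 genes, 0.0691%, were called there, all higher: Vegfa, Cytip, Fosl2, Thbs1, Mxi1, Got1, Stk17b, Il1b and Rims3. Of these, Mxi1, a Myc antagonist, Il1b and Rims3, a protein of the synaptic active zone, were not called against control with the block. The level of Rims3 was low, at -1.08 to -0.81 log2 CPM at 0 min and 0.09 to 1.40 at 60 and 150 min, with a prior count of 2. The acceptors at 0 min against control gave no call by edgeR, with 263 genes at an unadjusted p below 0.05, nor with the block, DESeq2 or limma-voom, where 354, 285 and 279 genes had one. Cytip differed by 0.50 and Vegfa by -0.09 between the baselines. For Nuak2 the acceptors at 0 min, at 17.4 CPM, stood between control at 12.1 ± 2.47 CPM and the acceptors at 150 min at 28.7 ± 3.71 CPM. The gene was not called against the acceptors at 0 min by either fit.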

How the data were processed

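Libraries were QuantSeq 3′ forward libraries, per the labels' protocols. STAR, Partek, DESeq2 and mm10 are named, without roles or versions, in the submitters' processing notes. The authors deposited a table of raw counts for 16144 gene symbols, used for every test. The normalized signal the authors also deposited is a rescaling by 1 factor per library (0.712 to 1.63) and entered no test. How reads of near-identical genes were split, and whether strand was used, is not stated.

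With edgeR 4.0.16 in R 4.3.3, the default filter left 13034 genes. A quasi-likelihood model with TMM factors took in all 39 libraries, with a mean for each group (biological coefficient of variation 0.383). A check on simulated data planted large changes in well-covered genes, without differences between runs. It did not cover smaller changes, genes of low counts or effects of a run. P-values were adjusted by Benjamini-Hochberg over all genes tested, with 0.05 as threshold. SEs were derived from the F statistics. DESeq2 1.42.0 and limma 3.58.1 were alternatives. Same-run libraries of the 3 groups correlated in their deviations from group means at 0.134 to 0.487 (9 pairs), others at -0.408 to 0.145 (18 pairs), so runs were taken as pairing; the labels do not say what a run is.

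Members and lists were chosen with earlier results of these data known. Named genes were, by rule, called genes without overlap and at least 10 CPM, up to 4 called or 2 uncalled genes of smallest p per list, the 5 of smallest p where a comparison had no call, and a set of microglial genes; not all are printed. Other names were chosen after values were seen. Positions are from GENCODE M21 and promoters from RefSeq.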

Additional observations from a re-analysis of the deposited data

How the results depend on the processing

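RLE scaling, total-count scaling and no filter on low counts kept each count of calls within 1.5 times. With DESeq2 the calls were 12 for both times together, 5 at 60 min, 15 at 150 min and 7 against acceptors at 0 min; with limma-voom 5, 1 and 1 against control. The replicate block by run gave 17, 12 at 150 min and 9 against acceptors at 0 min. A fit to the compared groups alone gave 1 for both times, 0 at 60 min, 0 at 150 min and 8 against acceptors at 0 min. The block in that smaller fit, chosen after seeing the data, gave 53 and, at 150 min, 72. Leaving out 1 library each in turn gave 0 to 15 calls for both times, 0 to 2 at 60 min, 1 to 6 at 150 min and 0 to 3 against acceptors at 0 min. The 0 came without control replicate 3, the 15 without control replicate 2, and 4 without replicate 1 of either time; at 60 min 0 came without replicate 2 or control replicate 3. Against acceptors at 0 min 0 came without their replicate 3. The log2 fold change of Il1b ran from -0.11 without control replicate 2 to 0.96 without control replicate 1. The cause of these changes was not tested. Over 39 genes and all alternatives, 597 values kept direction and side of the threshold, 62 became calls, 3 lost the call (Cytip in 2 settings, Vegfa in 1) and 1 reversed. Ccl3 and Tnf differed several-fold among the 3 controls, a spread that limits the precision of their comparisons.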

Other observations

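Genes of basic cell functions showed small differences from control. The median log2 fold change was 0.02 over 37 ribosomal protein genes, 0.03 over 36 respiratory chain genes, -0.04 over 36 cell cycle genes and -0.05 over 30 genes of sterol synthesis and LXR targets, with no call in any of them with or without the block. Insig1, which holds back sterol synthesis, held 25.6 to 27.7 CPM in control and 14.9 to 21.9 CPM in the acceptors, so that the groups did not overlap. Hspa1a, an inducible heat shock protein uncertain because of its near-identical copy Hspa1b, held 13.1 to 27.3 CPM in control and 6.20 to 13.1 CPM in the acceptors. Ms4a7, a marker of macrophages at the borders of the brain, held 408 to 453 CPM in control and 484 to 563 CPM in the acceptors. None of these 3 genes was called in the fit to all 39 libraries, and the block in a fit to the 9 libraries alone, chosen after seeing the data, called Hspa1a lower at an adjusted p of 0.0483.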
